A study of Brassica napus with 12 samples.

Results

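The leaf transcriptomes of the oilseed rape cultivars Avatar and Zhongshuang 9 were compared in plants kept in air. The members were chosen by their labels alone: the 6 air libraries, 3 of each cultivar, of 12 libraries in all. Every library came from the first true leaf of seedlings aged 16 days. The air plants of both cultivars stood for 24 h in boxes that held no water, in short days, while the other 6 libraries came from plants under water for the same 24 h. The labels name no transgene, mutation or further agent for any group. Whether the leaf of 1 plant or a pool went into a library is not said, so p-values measure only the spread between these samples. Libraries carry the numbers 1, 3 and 4 in each group.

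Oilseed rape, Brassica napus, is an allotetraploid: a cell carries the chromosomes of the A subgenome, from a relative of turnip, beside those of the C subgenome, from a relative of cabbage. Most genes therefore exist as closely related A and C copies, called homoeologues, and chromosomes such as A01 and C01, or A05 and C05, are largely collinear. Cultivars of this crop are known to differ in gene content, and stretches of chromosomes of one subgenome are known to have been replaced in some lines by their counterparts from the other. DNA was not measured here. The identifiers hold the subgenome, the chromosome and a gene number, so that BnaA05g07900D is gene number 7900 of chromosome A05. Gene numbers below give order along a chromosome and are not base positions. Nearly all identifiers come without a gene name, so functions are not given, and the leaf label could not be checked against marker genes.

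The air libraries held 28598807 to 35873196 estimated counts, and 61980 to 63997 of the 101040 targets had a value above 0. For a gene with no count in a library the upper limit was 3 counts, equal to 0.0928 to 0.114 CPM (counts after scaling all libraries to 1 total), and this floor covers counting error only. Rank correlations across genes were 0.918 to 0.984 between replicates of a cultivar in air and 0.838 to 0.882 between cultivars. The Avatar replicates differed more from each other than those of Zhongshuang 9 did. Their chi-square per gene was 29.5 to 41.3, against 12 to 14.3 in Zhongshuang 9, and all 6 libraries were counted as separate samples.

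Some air libraries stood apart along whole stretches of chromosomes, and the results that rest on these stretches are given with that fact. In Avatar air replicate 3, the median over windows of C02 from gene number 10 to 7380 was 3.32% of that in replicates 1 and 4. Of the 315 genes there with a mean of 1 CPM or more in those replicates, 223 had at most 2 counts. In the same library genes of C03 from 1610 to 18920 stood at 5.53%, and 495 of 731 such genes had at most 2 counts. A stretch of A02 stood at 195% and one of A03 at 167% in that library. The C03 genes from 22360 to 26260 were at 49.6% in Avatar air replicate 4. In Zhongshuang 9 air replicate 4, nearly all of C08 was lowered, in 4 stretches at 55.7% to 58.7%. Zhongshuang 9 air replicate 1 had genes of C05 from 46840 to 48350 at 56.1% and genes of A05 from 32290 to 33470 at 151%, and replicate 3 had genes of C02 from 42260 to 44310 at 54.7%. Avatar air replicate 1 had genes of A07 from 22090 to 23480 at 146% and of A10 from 25190 to 26360 at 147%. Avatar air replicate 4 had genes of A03 from 19800 to 21080 at 165%. The remaining stretches, on A03, C02 and C03, were listed for Avatar air replicate 1. Those on C02 and at the start of C03 overlap the stretches that were low in replicate 3. There were 25 such stretches, at least 1 in each of the 6 air libraries, and together they held 6051 of the tested genes. The rule for them was chosen after the values were seen: at least 4 neighbouring windows of about 20 genes, each beyond both other replicates of the cultivar by at least 0.4 on the log2 scale. Percentages are medians over windows against the mean of both other replicates.

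**Figure D1:**
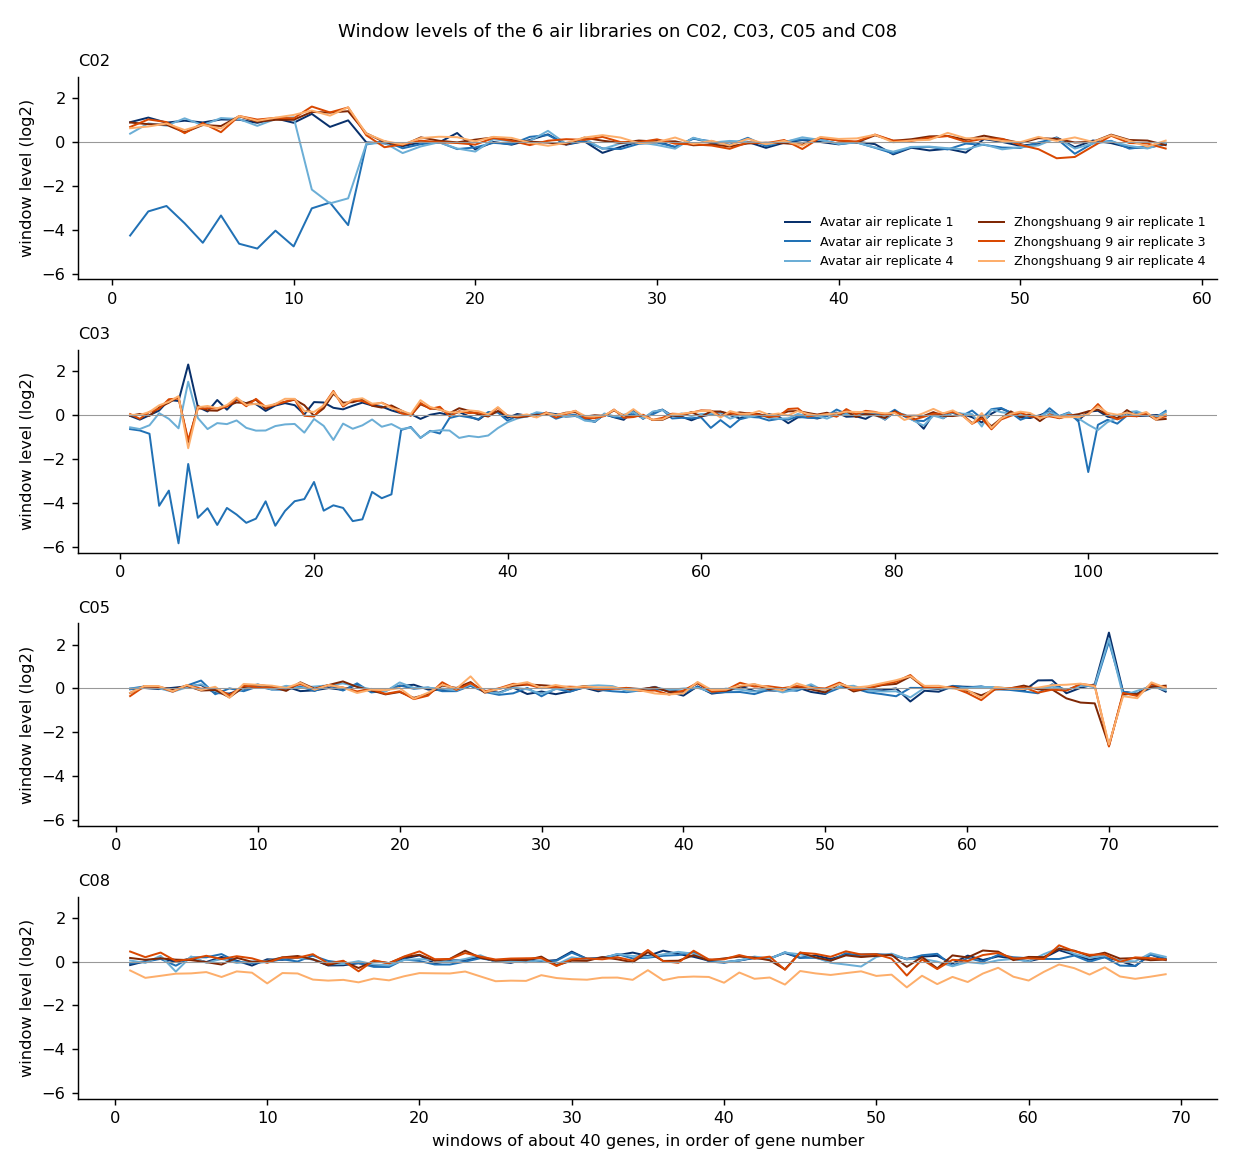
Window levels along C02, C03, C05 and C08 in the 6 air libraries. Each line is a library, each point on it a window of about 40 neighbouring genes in order of gene number, and the y axis is the log2 level against the mean of the 12 libraries. Avatar air replicate 3 falls far below the rest at the start of C02 and C03, and Avatar air replicate 4 falls with it on C02 from gene number 6980 to 9300. Avatar air replicate 4 runs below on C03, and Zhongshuang 9 air replicate 4 runs below along the whole of C08. Near the end of C05 all 3 Avatar libraries lie far above all 3 Zhongshuang 9 libraries.

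The cultivars differed in many genes without any flooding, and more genes were lower in Zhongshuang 9 than were higher. Of 55674 genes tested, 3677 (6.6%) were higher and 5830 (10.5%) lower in Zhongshuang 9 (edgeR quasi-likelihood F test over the 12 libraries, Benjamini-Hochberg adjusted p under 0.05). The median difference was 2.83-fold among the higher genes and 3.64-fold among the lower ones. At least 8-fold differences were found in 867 higher and 1690 lower genes. In a bulk sample a lower level cannot be told apart from fewer cells of a type that holds the RNA.

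In the called genes the air libraries of the cultivars mostly did not overlap. The 3 values of one cultivar lay wholly beyond the 3 of the other in 99.8% of the higher and 97.9% of the lower genes, whereas over all tested genes 22.3% were so separated upward and 19.0% downward. The calls use the same air libraries, so this separation largely follows from them and is no further support. The share of genes called rose with the level at first, from 10% below 1 CPM in the higher cultivar to 17.3% at 1 to 5 CPM and 19.6% at 5 to 20 CPM. It was 21.5% at 20 to 100 CPM and 20.6% above that. Low genes were called at larger differences, with a median of 3.70 on the log2 scale below 1 CPM against 1.22 at 20 to 100 CPM.

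Much of the difference was also seen in plants from the other treatment. The submerged libraries share no sample with the air libraries, although all 12 share 1 estimate of the spread. There, 88.7% of the genes higher in air and 95.6% of those lower in air had the same sign. The share of all tested genes with the same sign is not given here, so these shares have no background to set them against. The threshold was passed in the same direction by 2085 of the higher genes (56.7%) and 3941 of the lower genes (67.6%). Over all genes 10.3% were higher and 14.2% lower in submerged Zhongshuang 9. The opposite direction passed for 65 and 34 genes. A test of the cultivar difference in air against that under submergence passed for 141 of the higher and 158 of the lower genes. The share over all tested genes is not given here, and the air values that chose these genes enter that test. Whether called genes pass it more or less often than other genes was therefore not assessed.

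The number of genes called depended on single libraries. Without Zhongshuang 9 air replicate 3 it was 2355 higher and 3854 lower, and without replicate 4 it was 2395 higher and 3990 lower. Without Avatar air replicate 3, the library with silent stretches, 2663 genes were higher and 4819 lower. Without all genes in the 25 stretches of single libraries, an alternative added after the values were seen, 3612 were higher and 5538 lower, so more lower than higher genes were found there too.

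The genes with the smallest p in each direction are given here, taken from called genes without overlap of the air libraries. Their tight replicates and separated groups follow from that choice. BnaCnng23390D, a C gene with no placed chromosome, stood at 0.187, 0.152 and 0.102 CPM in Avatar but 16.2, 19.6 and 17.8 CPM in Zhongshuang 9. The groups lay far apart, although the Avatar libraries held only 3 to 5 counts each. The ratio of the cultivars was 124, with a 95% counting interval of 70.6 to 240, and the log2 fold change was 6.90 ± 0.25 (SE, n = 3 against 3, edgeR adjusted p = 2.72e-07). BnaC01g10930D stood at 2.62, 2.93 and 2.98 CPM in Avatar and at 41.0, 44.0 and 42.1 CPM in Zhongshuang 9. No library of one cultivar came near those of the other, with a log2 fold change of 3.90 ± 0.15 (SE, n = 3 against 3, edgeR adjusted p = 3.66e-07).

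Among the lower genes, BnaA05g07900D stood at 23.5, 22.02 and 23.9 CPM in Avatar and had 1 count in each Zhongshuang 9 library. The ratio of Avatar to Zhongshuang 9 was 692, with a 95% counting interval of 236 to 3360 (edgeR adjusted p = 4.61e-08, n = 3 against 3). It was as low in submerged Zhongshuang 9, at 0.101, 0.0615 and 0.0374 CPM, against 39.3 to 40.4 CPM in submerged Avatar. BnaA02g07730D stood at 119, 109 and 109 CPM in Avatar and at 5.41, 5.20 and 5.77 CPM in Zhongshuang 9, without overlap, which the choice of these genes required. Its log2 fold change was -4.36 ± 0.13 (SE, n = 3 against 3, edgeR adjusted p = 1.29e-07). Both lower genes lie inside runs of lower windows described below.

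Only 2 identifiers could be paired with a gene symbol, and neither passed the test in air. TR1 (BnaCnng15100D) stood at 5.28, 3.66 and 4.09 CPM in Avatar and at 4.88, 4.58 and 4.86 CPM in Zhongshuang 9. These groups overlapped, and the log2 fold change was 0.14 ± 0.17 (SE, n = 3 against 3, edgeR adjusted p = 0.658). KCP1 (BnaA02g32290D) stood at 21.95, 21.1 and 19.2 CPM in Avatar and at 24.8, 22.2 and 25.9 CPM in Zhongshuang 9. Its groups did not overlap, yet the log2 fold change of 0.23 ± 0.11 (SE, n = 3 against 3, edgeR adjusted p = 0.180) did not pass the threshold.

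**Figure D2:**
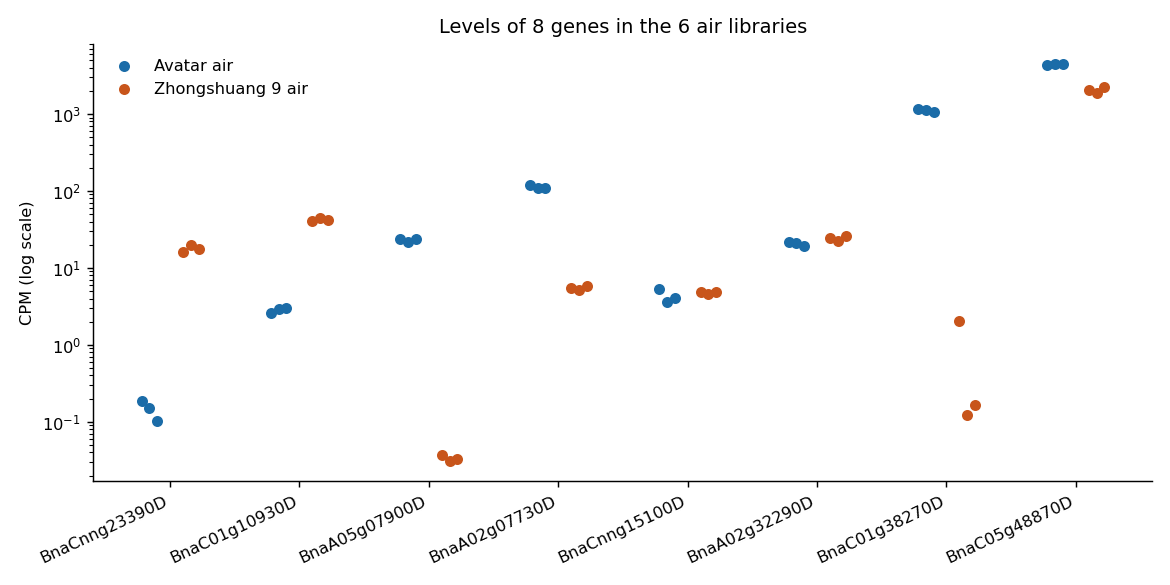
CPM of 8 genes in the 6 air libraries on a log axis, with a point for each library and no bars. The first 4 genes have the smallest p in either direction among called genes whose air libraries do not overlap. The next pair are TR1 and KCP1, and the last pair are the most abundant called genes of the stretches on C01 and C05. The cultivars lie far apart in the first 4 genes and in the gene on C01, by about 2-fold in the gene on C05, and close together in TR1 and KCP1.

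Some genes were counted in only 1 cultivar. In air, 167 genes reached at least 1 CPM in every Avatar library and had no count in any Zhongshuang 9 library, and 118 genes showed the reverse. Their mean levels in the cultivar that had them ran from 1.07 to 26.9 CPM, with a median of 2.82, for the Avatar genes and from 1.19 to 21.5 CPM, with a median of 2.84, for the Zhongshuang 9 genes. Of the Avatar genes 79 were A and 88 C genes, and of the Zhongshuang 9 genes 47 were A and 71 C genes. For 78 of the 167, every submerged Zhongshuang 9 library also had no count, and for 65 of the 118 every submerged Avatar library had none. By placed chromosome, C01 held the most Avatar genes, 16, or 0.687% of its tested genes against 0.3% of all, and C02 the most Zhongshuang 9 genes, 15, or 0.65% against 0.212%. Of the 16 genes on C01, 14 lie inside the stretch near its end described below. Of these, 13 had counts when the submerged Zhongshuang 9 libraries were added up. That stretch stood at a log2 level of 2.14 in submerged Zhongshuang 9 replicate 1 but at -2.38 and -2.24 in replicates 3 and 4. The counts are thus no sign that submerged Zhongshuang 9 as a group had these genes. These genes were selected by their absence in 1 cultivar, so the numbers are a description with no test.

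The excess of lower genes lay in the A subgenome. Of 26280 A genes tested, 6.62% were higher and 13.9% lower in Zhongshuang 9. Of 29235 C genes, 6.58% were higher and 7.4% lower. The share of higher genes was thus nearly the same in both subgenomes, while lower genes were far more frequent among A genes. When only genes with 5 CPM or more in the higher cultivar were counted, 17.7% of A and 8.11% of C genes were lower, and outside the stretches of single libraries 13.5% of A and 7.76% of C genes. Under submergence 17.7% of A and 11.2% of C genes were lower. These shares were not tested against each other, since neighbouring genes can shift together and are not independent.

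The share of counts held by the A subgenome differed little. It was 49.1%, 51.1% and 50.1% in the Avatar air libraries and 47.8%, 47.7% and 49.0% in those of Zhongshuang 9. The groups did not overlap, but the lowest Avatar and the highest Zhongshuang 9 library lay close together. The means were 50.1% ± 1.00 and 48.2% ± 0.696 (SD, n = 3 each), a difference of -1.94 percentage points (exact permutation test, two-sided, p = 0.1, the smallest that 3 against 3 allows). As a share of TPM (counts per effective length, with the same total in each library) the groups overlapped and the difference was -1.74 points (exact permutation test, p = 0.2). The silent stretches of C02 and C03 in Avatar air replicate 3 and the lowered C08 of Zhongshuang 9 air replicate 4 enter these shares. Without chromosomes C02, C03, C08, A02 and A03 the A share was 53.5% ± 0.387 in Avatar and 52.6% ± 0.214 in Zhongshuang 9 (SD, n = 3 each), a difference of -0.904 points.

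The lower genes were not spread evenly over the A chromosomes. A03 had the highest share, with 18.7% of 3669 tested genes lower in Zhongshuang 9, followed by A04 with 17.1%, A01 with 16.7% and A02 with 16.2%. A09 had the lowest share among A chromosomes, 9.99%, just above the highest among C chromosomes, 9.79% on C04. The pattern of A05 was different, with 12.2% higher and 11.9% lower, the highest share of higher genes of any placed chromosome. C02 had 9.53% higher and 6.58% lower genes. C08 had the fewest calls, 10.5% of 2746 genes and only 2.66% higher, and it is the chromosome that was lowered in Zhongshuang 9 air replicate 4. The order changed outside the stretches of single libraries, where A04 had 17.1% lower genes, A02 16.9%, A01 16.7% and A03 16.4%, and where 12.2% of C02 genes were higher, the same share as on A05.

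**Figure D3:**
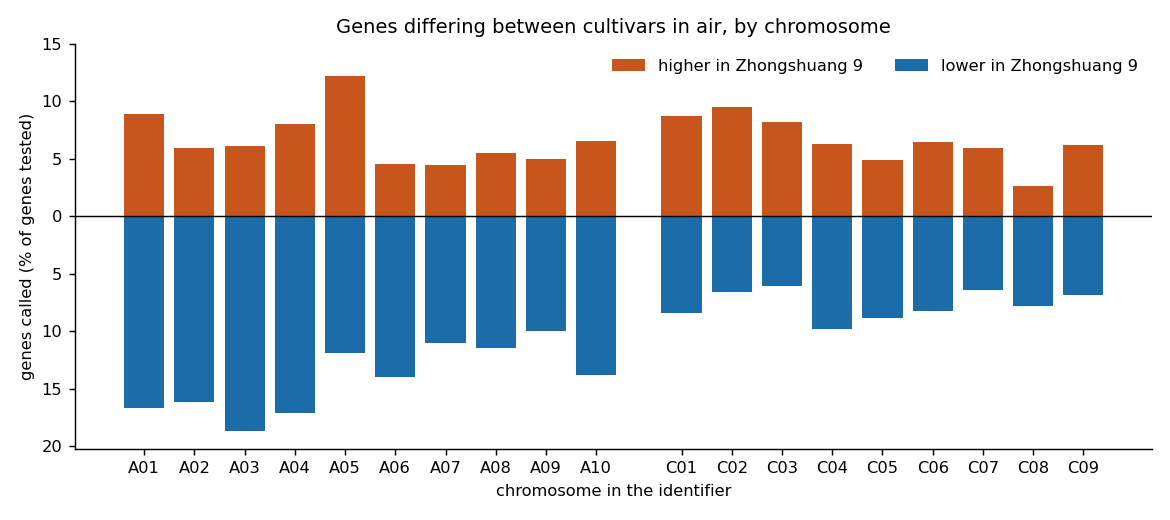
Share of the tested genes called higher (upward bars) and lower (downward bars) in Zhongshuang 9 in air on each of the 19 placed chromosomes, in percent. Downward bars are longer on the A chromosomes, from 9.99% on A09 to 18.7% on A03, than on the C chromosomes, and A05 has the longest upward bar at 12.2%.

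Added up over genes, the share of the transcriptome on a chromosome was at times set by a single abundant gene. A04 held 5.20%, 5.84% and 5.45% of TPM in Avatar and 6.34%, 6.47% and 6.78% in Zhongshuang 9, which was higher in all 3 libraries although 17.1% of A04 genes were lower. The share of A04 differed by 1.03 points, that of BnaA04g08640D alone by 1.25 points, and that of the remaining A04 genes by -0.213 points. Its TPM was 2506, 10520 and 2916 in Avatar and 17080, 17590 and 18680 in Zhongshuang 9. All Zhongshuang 9 libraries were above all Avatar libraries, but Avatar air replicate 3 stood far above its replicates, and the log2 fold change of 1.72 ± 0.68 (SE, n = 3 against 3, edgeR adjusted p = 0.117) did not pass the test.

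The shares of A08 and A09 went the other way. A08 held 3.80%, 3.79% and 3.63% of TPM in Avatar and 3.05%, 3.17% and 3.15% in Zhongshuang 9, with no overlap. BnaA08g17660D, at 6243, 5056 and 5047 TPM in Avatar and 909, 808 and 832 TPM in Zhongshuang 9, changed by -0.46 points, against -0.619 points for the whole of A08. Its log2 fold change was -2.71 ± 0.44 (SE, n = 3 against 3, edgeR adjusted p = 0.00167). A09 held 7.74% ± 0.175 of TPM in Avatar and 7.12% ± 0.0768 in Zhongshuang 9 (SD, n = 3 each). Here BnaA09g26570D changed by -0.468 points, against -0.617 points for A09, with 5903, 4620 and 5085 TPM in Avatar and 639, 399 and 527 TPM in Zhongshuang 9 (log2 fold change -3.35 ± 0.72, SE, n = 3 against 3, edgeR adjusted p = 0.00881). C06 rose from 3.78% ± 0.108 to 4.32% ± 0.128 (SD, n = 3 each), without overlap, and its leading gene BnaC06g28720D gave only 0.16 of the 0.538 points. The share of C03 differed most, at 8.39%, 6.68% and 7.33% in Avatar and 8.78%, 8.61% and 8.89% in Zhongshuang 9. Its leading gene, BnaC03g41850D, gave 0.176 of the 1.29 points, and the lowest share was that of Avatar air replicate 3, the library with the silent C03 stretch. These genes were taken as the largest TPM difference of their chromosome after the values were seen, and the chromosome shares were not tested.

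Neighbouring genes differed together. The placed chromosomes were divided into 1245 windows of about 40 neighbouring tested genes, and the level of a window was the median over its genes of the log2 CPM against the mean of the 12 libraries. In air, 149 windows (12%) were higher and 189 (15.2%) lower in Zhongshuang 9 (limma over the 12 libraries, Benjamini-Hochberg adjusted p under 0.05). On A chromosomes 57 of 606 windows were higher and 147 lower, whereas on C chromosomes 92 of 639 were higher and 42 lower. The subgenomes thus had opposite majorities among called windows. A lower window stood at a median of 71.6% of its level in Avatar and a higher window at 123%, so a typical window shift was much smaller than the difference of a called gene.

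Windows called in air were also compared in the submerged libraries. Of the 189 lower windows 150 (79.4%) passed the test in the same direction in the submerged libraries, and of the 149 higher windows 46 (30.9%). Over all 1245 windows, 257 (20.6%) were lower and 61 (4.9%) higher in submerged Zhongshuang 9. The lower windows also had the larger shifts in air, and the recurrence of lower and higher windows was not tested against each other. A test of the difference between air and submergence passed in 0 of the 1245 windows with limma, with an unadjusted p under 0.05 in 194. Within the lower windows 2196 of 7550 genes (29.1%) were called lower one by one, and in the windows that passed neither way 2936 of 36241 genes (8.1%) were. The windows and the genes use the same libraries, so this overlap is a description. The number of higher windows depended on single libraries. It was 97, 88 and 78 without Zhongshuang 9 air replicates 1, 3 and 4 and 84 without Avatar submergence replicate 1, while the lower windows numbered 143, 135, 143 and 219.

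Lower windows formed long runs on A chromosomes. There were 15 runs of at least 3 neighbouring lower windows, with 70 windows in all, and all of them lay on A chromosomes. Runs of at least 3 higher windows numbered 2 on A and 3 on C chromosomes, and the C chromosomes had no run of 3 lower windows. The longest run had 8 windows and 321 genes on A09, from gene number 38850 to 43720, at a median of 77.7% of Avatar. All 8 windows also passed under submergence.

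The run on A01 from gene number 10780 to 15030 held 7 windows at 68.2%. Of its 278 genes 97 were called lower (34.9%), where 13.9% of A genes and 10.5% of all genes were. Runs consist of windows called in the same air libraries, so the gene counts in these runs are a description. The level of this A01 run, on the log2 scale against the mean of the 12 libraries, was 0.31, 0.38 and 0.35 in Avatar. In Zhongshuang 9 it was -0.11, -0.28 and -0.27. Near the start of A01, from 610 to 2800, a run of 4 windows stood at 52.6%, with 63 of 159 genes called lower. On A02 a run of 6 windows from 6900 to 11280 stood at 58.4%, with 96 of 241 genes called lower, and this run holds BnaA02g07730D. The run on A05 from 7360 to 9840 stood at 57.9% and holds BnaA05g07900D. All windows of these 4 runs passed under submergence in the same direction. Further runs of 5 or 6 windows lay on A03 from 25830 to 28750 at 54.8%, on A04 from 12390 to 16780 at 74.3% and on A06 from 2370 to 5300 at 71.4%. Of their windows 4 of 5, 4 of 6 and 4 of 5 passed under submergence.

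In the runs at the start of A03 the Avatar libraries were unequal. From gene number 3560 to 5890, 4 windows stood at 45.8% of Avatar, and the level was 0.38, 1.33 and 0.89 in Avatar air replicates 1, 3 and 4, against -0.26, -0.29 and -0.23 in Zhongshuang 9. Avatar air replicates 3 and 4 were the highest, and both had lowered stretches on C03, but replicate 1 also lay above every Zhongshuang 9 library. Under submergence only 1 of these 4 windows passed, with a median difference of -0.08 on the log2 scale. The part that the unequal Avatar libraries have in the A03 runs was not tested.

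Higher runs were fewer. The longest lay on C02 from gene number 34250 to 39510, with 6 windows at a median of 141% of Avatar, and 5 of the 6 windows passed under submergence. On A05 from 20290 to 22770, 4 windows stood at 156%, of which 2 passed under submergence. The run on C03 from 20460 to 22340 stood at 175%, but none of its 3 windows passed under submergence. There the levels were 0.02, -0.84 and -0.74 in Avatar air replicates 1, 3 and 4, so the libraries with lowered C03 stretches were the low ones.

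**Figure D4:**
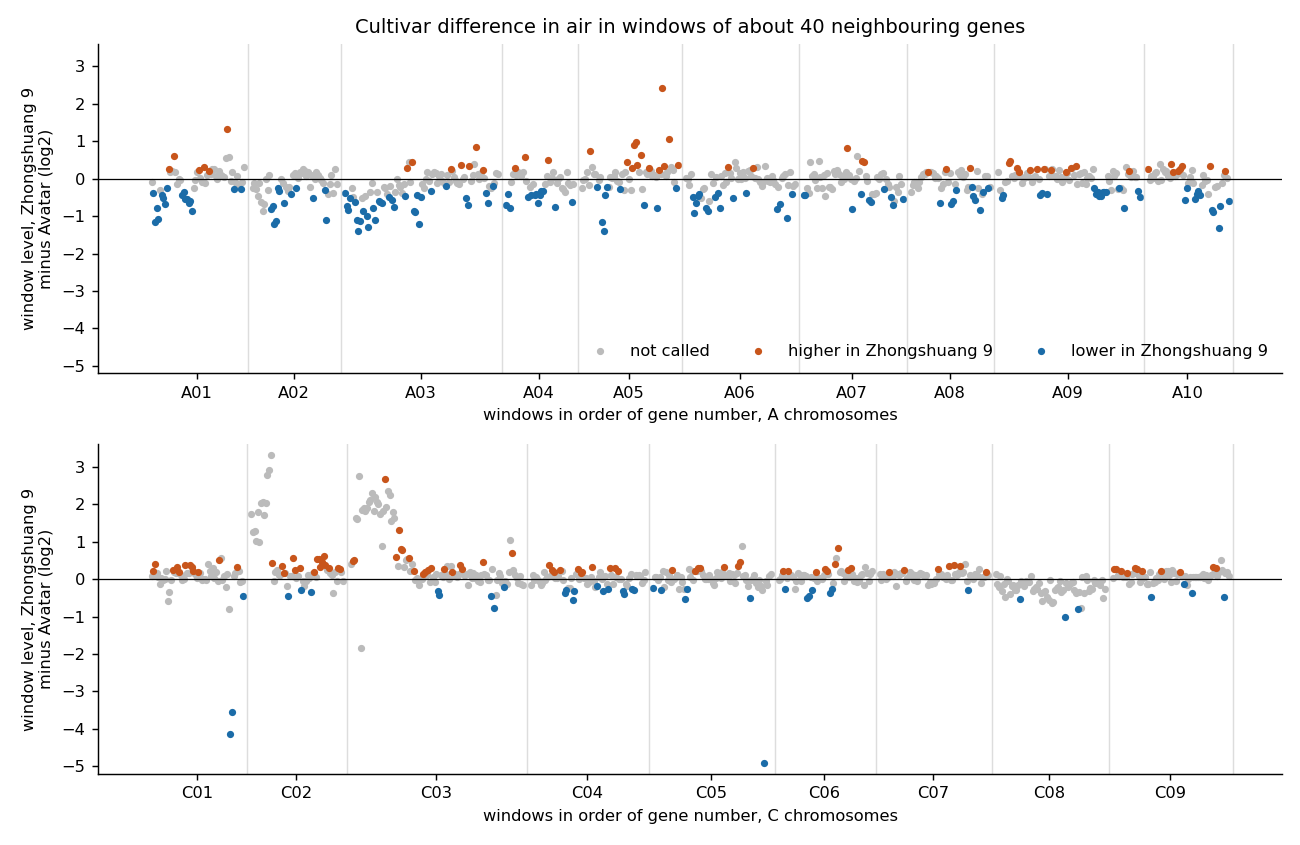
Difference in level between Zhongshuang 9 and Avatar in air (log2) for each of 1245 windows of about 40 genes, in order along the A chromosomes (top) and the C chromosomes (bottom). Coloured points passed the test and grey points did not. Blue points below 0 form runs on the A chromosomes, and single points near the ends of C01 and C05 lie far below the rest. The grey points far above 0 at the start of C02 and C03 are windows that were low in Avatar air replicate 3. On C02 from gene number 6980 to 9300 Avatar air replicate 4 was low as well.

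The windows with the largest called differences lay near the ends of C05 and C01. On C05 a stretch of 40 genes from gene number 48360 to 48870 stood at a level of 2.48, 2.19 and 2.27 in Avatar and -2.53, -2.61 and -2.57 in Zhongshuang 9 (log2 against the mean of the 12 libraries). All Zhongshuang 9 libraries were alike and far below all Avatar libraries. Under submergence the levels were 2.84, 2.67 and 2.70 in Avatar and -2.50, -2.66 and -2.32 in Zhongshuang 9, the same pattern in other plants. Of the 40 genes 37 were called lower and none higher, where 10.5% of all genes were lower. The stretch was chosen by the same air libraries, so that number is a description. Of the 34 genes with a mean of 1 CPM or more in the higher cultivar, 30 were below 10% of their Avatar level in Zhongshuang 9. The window test gave a difference of -4.92 ± 0.12 (SE, n = 3 against 3, limma adjusted p = 3.97e-09).

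The most abundant called gene of this stretch kept much of its level. BnaC05g48870D, the last gene of the stretch, stood at 4283, 4457 and 4484 CPM in Avatar and at 2070, 1899 and 2245 CPM in Zhongshuang 9. Its groups did not overlap, with a log2 fold change of -1.09 ± 0.28 (SE, n = 3 against 3, edgeR adjusted p = 0.0209). On A05, the chromosome largely collinear with C05, a stretch of 40 genes from 30980 to 31650 was higher in Zhongshuang 9. Here 16 genes were called higher and 1 lower, where 6.6% of all genes were higher. This stretch was likewise chosen by the same air libraries. Its level was -3.51, -0.26 and -0.07 in Avatar and 0.90, 1.09 and 1.23 in Zhongshuang 9. Avatar air replicate 1 stood far below both other Avatar libraries there, and even those lay below every Zhongshuang 9 library. Under submergence the levels were -0.49, -0.72 and -0.72 in Avatar and 0.98, 1.14 and 1.04 in Zhongshuang 9. BnaA05g31230D, its most abundant called gene, stood at 1.80, 1.64 and 1.73 CPM in Avatar and 22.6, 22.7 and 24.2 CPM in Zhongshuang 9, a log2 fold change of 3.75 ± 0.21 (SE, n = 3 against 3, edgeR adjusted p = 1.72e-06). Which A05 genes are copies of which C05 genes was not analysed here.

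On C01 a longer stretch, 101 genes from gene number 37000 to 38860, was low in Zhongshuang 9. Its level was 1.69, 1.47 and 1.57 in Avatar and -2.19, -2.31 and -2.07 in Zhongshuang 9, and the groups were far apart. Of the 101 genes 53 were called lower and none higher, where 10.5% of all genes were lower. The stretch was chosen by the same air libraries, so that number is a description. The median log2 fold change of its 101 genes was -6.62, but only 63 of them had a mean of 1 CPM or more in the higher cultivar. BnaC01g38270D, its most abundant called gene, stood at 1149, 1115 and 1052 CPM in Avatar and at 2.07, 0.124 and 0.163 CPM in Zhongshuang 9. Its log2 fold change was -10.5 ± 2.92 (SE, n = 3 against 3, edgeR adjusted p = 0.0320). That SE comes from the fit over the 12 libraries, so the spread of the submerged libraries enters it. The summed level of the stretch was 2027 CPM in Avatar and 175 CPM in Zhongshuang 9.

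In the same libraries a stretch of 80 genes on A01, from gene number 29470 to 30780, was higher in Zhongshuang 9. Its level was -0.65, -0.64 and -0.62 in Avatar and 0.71, 0.62 and 0.72 in Zhongshuang 9, again without overlap. Of its genes 37 were called higher and 1 lower, where 6.6% of all genes were higher, and the summed level rose from 1211 CPM to 3491 CPM. This stretch too was chosen by the same air libraries, so these numbers are a description. BnaA01g30320D, its most abundant called gene, stood at 170, 559 and 927 CPM in Avatar and at 1939, 1978 and 1945 CPM in Zhongshuang 9. Its Avatar libraries were spread widely below 3 closely placed Zhongshuang 9 libraries (log2 fold change 1.82 ± 0.49, SE, n = 3 against 3, edgeR adjusted p = 0.0266).

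Under submergence 1 library of Zhongshuang 9 had the Avatar pattern at both places. The C01 stretch stood at 2.14 in replicate 1 but at -2.38 and -2.24 in replicates 3 and 4, against 1.86 to 1.93 in Avatar. The A01 stretch stood at -0.50 in replicate 1 and at 0.95 and 0.89 in replicates 3 and 4, against -0.33 to -0.27 in Avatar. The same library stood apart from its replicates elsewhere too, on C02 as given below, on A02 from 3360 to 4010 (1.18 against -0.94 and -0.71) and on A03 from 7840 to 8670 (0.09 against -0.83 and -0.96). The air libraries of Zhongshuang 9 showed no such split on C01 or A01.

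**Figure D5:**
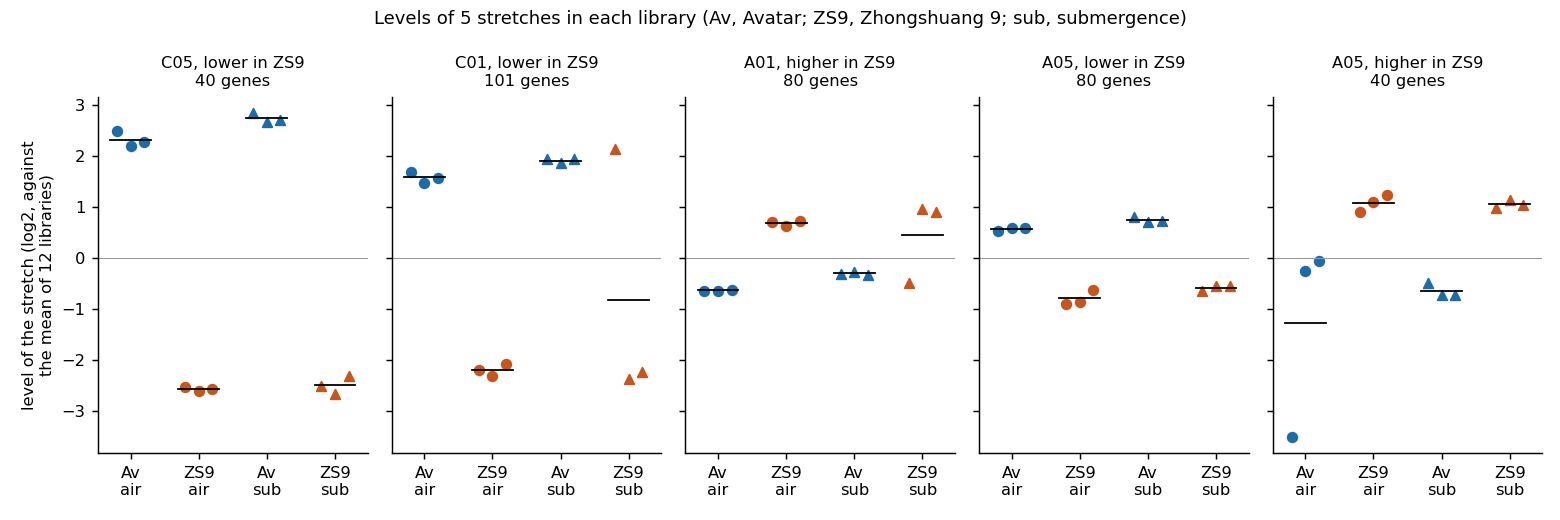
Level of 5 stretches in each of the 12 libraries, on the log2 scale against the mean of the 12, with a point for each library (circles, air; triangles, submergence) and a line at the group mean. In air the cultivars do not overlap in any of the 5, which the rule for these stretches required. Replicate 1 of submerged Zhongshuang 9 lies with Avatar on C01 and A01, and Avatar air replicate 1 lies far below its group on the A05 stretch that is higher in Zhongshuang 9.

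Other strong stretches lay on A02, A03, A05, C02 and C03. A strong stretch, by a rule chosen after the values were seen, had at least 2 neighbouring windows of about 20 genes that differed by at least 1 on the log2 scale without overlap between the air libraries of the cultivars. Separation in air was thus required of these stretches, those on C05, C01, A01 and A05 above included, and is no finding about them. Their many genes called in air largely follow from the same rule, since the calls use the same libraries. There were 18, of which 10 were higher in Zhongshuang 9, 3 of them on A and 7 on C chromosomes, and 8 were lower, 6 of them on A and 2 on C chromosomes. On A05 from gene number 7450 to 8660, 43 of 80 genes were called lower. The level was 0.53, 0.59 and 0.58 in Avatar and -0.90, -0.86 and -0.62 in Zhongshuang 9, and it was as far apart under submergence, at 0.80, 0.70 and 0.73 against -0.64, -0.55 and -0.55. On A02 from 8610 to 9690, 33 of 60 genes were called lower, with 0.82, 0.86 and 0.79 in Avatar and -0.47, -0.33 and -0.39 in Zhongshuang 9. On A05 from 21670 to 22360, 21 of 40 genes were called higher, with -0.60, -0.46 and -0.55 in Avatar and 0.50, 0.77 and 0.60 in Zhongshuang 9. In the 3 lower stretches on A03 and in that on A02 from 3360 to 4010, Avatar air replicates 3 and 4 both lay above replicate 1.

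In all 7 higher stretches on C02 and C03, Avatar air replicate 3 was the lowest of the 6 air libraries. On C02 from 4510 to 5680 the level was 1.07, -4.93 and 0.89 in Avatar air replicates 1, 3 and 4 and 1.16, 1.14 and 1.24 in Zhongshuang 9. Only replicate 3 was low, and 2 of 60 genes passed the test. On C02 from 7890 to 9360 both replicate 3, at -3.54, and replicate 4, at -2.69, were far below replicate 1, at 0.69, and Zhongshuang 9 stood at 1.32, 1.41 and 1.22. Under submergence the low library in both C02 stretches was Zhongshuang 9 replicate 1, at -4.06 and -3.34, against 0.86 to 1.45 in replicates 3 and 4. On C03 from 13350 to 17320 it was 0.38, -4.25 and -0.53 in Avatar and 0.61, 0.67 and 0.69 in Zhongshuang 9, and 19 of 199 genes (9.55%) were called higher, near the 8.17% of all C03 genes. Both other Avatar libraries were below Zhongshuang 9 there as well, by far less than replicate 3. On C03 from 20710 to 21390 the Avatar libraries were closer, at -0.49, -1.16 and -1.01 against 0.38, 0.45 and 0.49 in Zhongshuang 9, and 20 of 40 genes were called higher. Under submergence the C03 stretch from 13350 stood at 0.40 to 0.50 in Avatar and 0.62 to 0.64 in Zhongshuang 9.

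A single window within the lowered part of C03 ran the other way. From gene number 3910 to 4520 the level was -1.25, -1.13 and -1.51 in Zhongshuang 9 and 2.32, -2.23 and 1.53 in Avatar air replicates 1, 3 and 4. Avatar air replicate 3 was below Zhongshuang 9 and both other Avatar libraries were far above it, so the groups overlapped. The window did not pass in air (difference -1.84 ± 0.90, SE, n = 3 against 3, limma adjusted p = 0.156), but 18 of its 40 genes were called lower one by one. Under submergence the difference was -4.13 (limma adjusted p = 0.00735).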

How the data were processed

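The authors deposited an estimated (expected) count and a TPM value for each of 101040 targets in each library, in the column layout of kallisto. Per the submitters' processing notes kallisto, edgeR and limma were used, without versions. For the genome build and annotation, nothing was given in the sources used here. Deposited effective lengths, of the unit called other, and coding lengths did not enter tests directly. The deposited TPM values, used for shares and in some alternatives, depend on the effective lengths. Of the deposited estimated counts in the air libraries, zeros included, 35.8% were not whole, since kallisto divides reads between targets that share sequence, so values of near-identical A and C copies are uncertain individually. The strand setting of the counting was likewise not stated.

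Libraries were grouped by the cultivar and treatment in the labels. Estimated counts were rounded to whole numbers and filtered with filterByExpr, scaled by TMM, and fitted with 1 mean for each of 4 groups over 12 libraries in edgeR 4.0.16 (R 4.3.3). Window levels, with 2 counts added before log2, were fitted with limma 3.58.1. DESeq2 1.42.0, limma-voom, limma on log2 TPM, other scalings, filters and window sizes, the 6 air libraries alone and each library left out were alternatives. The tests were also run on simulated data that held no stretches shifted in single libraries, so that run does not cover such stretches. Counting intervals of ratios are exact binomial intervals (95%).

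The members, gene rules and alternatives were chosen with earlier results of these data known. Named genes are the 2 higher and 2 lower with the smallest p among called genes with at least 5 CPM in the higher cultivar and no overlap of the air libraries, and every gene with a symbol. Other genes were named after their values were seen. Of the identifiers, 3347 (3.31%) matched a RefSeq gene table of another assembly, Da-Ae, and 2 had a symbol; it holds no descriptions, so planned gene lists, leaf markers and pairs of A and C copies were not analysed here. Of 2939 genes placed in both, 2732 (93%) lay on the same chromosome, and gene number and position had a median absolute rank correlation of 0.862 over the chromosomes (lowest 0.779).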

Additional observations from a re-analysis of the deposited data

Results flagged for a closer look

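The measured cultivar difference of BnaCnng23390D was larger in air than under submergence. The gene was chosen by its small p in air, and the same air values enter the test of this difference. That choice favours a larger difference in air, so the p-value below is no independent support. In air it stood at 0.147 ± 0.0432 CPM in Avatar but 17.9 ± 1.73 CPM in Zhongshuang 9 (SD, n = 3 each), and under submergence at 0.557 ± 0.0923 and 17.8 ± 2.86 CPM (SD, n = 3 each). The log2 fold change was 6.90 in air and 4.99 under submergence, a difference of 1.91 (edgeR adjusted p of the difference = 0.02298). Zhongshuang 9 was alike in both treatments, and Avatar was higher under submergence, at levels that rest on 3 to 5 counts per library in air. Of the 6 named genes it was the only one for which this difference passed the threshold.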

How the results depend on the processing

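The 142 alternative values of the 6 named genes kept their direction and side of the threshold. The difference in A share stayed negative in every alternative. Calls of genes and windows were compared as counts, so the direction of each called gene or window across settings was not checked. DESeq2 called 5032 genes higher and 7032 lower, the 6 air libraries alone 4133 and 7256, and the other settings that kept all libraries gave gene counts within 1.5 times of those reported. Calls with single libraries left out ranged from 2355 to 5071 higher and from 3854 to 7419 lower genes, and from 78 to 193 higher and 135 to 219 lower windows. The highest counts came without Zhongshuang 9 submergence replicate 1, except for lower windows (without Avatar submergence replicate 1). Windows of about 20 genes gave 317 lower windows of 2486, and windows of about 80 genes gave 90 higher and 109 lower of 622, where fewer windows exist to be called. The difference in A share ranged from -2.44 to -1.44 points with single air libraries left out.

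Deviations of same-numbered Avatar and Zhongshuang 9 air libraries correlated weakly across genes, at 0.0913, 0.0509 and 0.0222. Those of libraries with different numbers correlated at -0.0947 to 0.0442. Whether equal numbers mark a shared batch was not tested, and submerged libraries were not compared in this way. With the number as a replicate block, 3278 genes were higher and 5217 lower, and 128 windows were higher and 175 lower.

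Depth limits genes near the floor of 3 counts, and 3 libraries per group, some with shifted stretches, limit the windows.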
